A study of Mus musculus with 18 samples.

Results

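The transcriptomes of 2 dendritic cell subsets of the mouse spleen were compared: type 1 conventional dendritic cells (cDC1) and plasmacytoid dendritic cells (pDC). All 6 count columns deposited for cDC1 were set against all 6 deposited for pDC, over the genes that both tables list and with the subset taken from the name of each table, so 12 of the 18 samples of the series entered the comparison. Each subset came from 3 samples labelled HDAC1 floxed, the controls, and 3 labelled HDAC1 Mx1-Cre, in which polyI:C drives deletion of the floxed gene. Controls and knockouts alike received polyI:C, and the cells were sorted 2 weeks afterwards. Mx1-Cre is switched on by interferon in many cell types and is not restricted to dendritic cells, and polyI:C itself induces interferon in all groups. The columns carry codes without a genotype, so each subset was treated as 1 group of 6, and the spread within a group includes the difference between genotypes. The labels give neither the age nor the sex of the mice and do not say whether the samples came from separate mice. The p-values therefore measure the spread between these samples, which may in part be technical.

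The subsets were separated by flow cytometry after lineage-positive and CD64+ cells had been gated out. For cDC1 the gate took CD11c+ MHCII+ cells that were XCR1+ and CD11b-. The pDC gate took cells of intermediate CD11c that were CD11b- and BST2+. The genes of these antigens (Xcr1, Itgax, Itgam, Fcgr1, Bst2 and the MHC class II genes) were used to make the groups, and their values are given as a description only. RNA-seq libraries were made with a SMARTER mRNA kit.

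Conventional dendritic cells take up antigen and present it to T cells, and cDC1 are the subset known for cross-presenting antigen from dead cells to CD8 T cells, a role that depends on the transcription factors Batf3 and Irf8. Plasmacytoid dendritic cells are known for making large amounts of type I interferon when their endosomal receptors meet viral nucleic acid, and their identity depends on the E protein Tcf4. Id2, an inhibitor of E proteins, opposes Tcf4 and is characteristic of the conventional subsets.

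Depth was similar in both subsets, from 23530860 to 37105002 counts per library in cDC1 and from 24453121 to 31773453 in pDC. Both tables listed 15662 genes, which held 99.9% of the counts in the library where that share was lowest. Of these, 11656 reached 1 count per 1e6 counts (CPM) in at least 6 libraries and were tested, and 4006 did not. The first principal component carried 89.6% of the variance and separated the subsets. The correlation of log2 CPM was 0.975 to 0.991 between cDC1 libraries, 0.986 to 0.994 between pDC libraries and 0.774 to 0.809 across the subsets, each over the same 11656 genes.

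Differences are given as log2 of cDC1 over pDC from edgeR's quasi-likelihood fit, and adjusted p-values are Benjamini-Hochberg values over all 11656 genes. The standard error (SE) is an approximation: the absolute log2 difference divided by the square root of the F statistic of the test. It is least certain where 1 subset holds few counts, such as the 18 counts of Tlr11 over the pDC libraries. A gene was called when its adjusted p was under 0.05, and separately when it passed a test against a 2-fold difference at the same threshold. The subsets differed in most genes: 8197 were called (70.3%), of which 4081 were higher in cDC1 (35%) and 4116 higher in pDC (35.3%). With library totals as the sole scaling, the median difference over all genes moved from -0.01 to -0.22, and the split became 2963 higher in cDC1 and 5219 higher in pDC. More than 2-fold differences were called for 2702 genes (23.2%), 1469 of them higher in cDC1 (12.6%) and 1233 higher in pDC (10.6%). The 6 values of one subset did not overlap the 6 of the other in 5915 genes (50.7%). Because each of these shares is large, the count of members called in any list below is to be read against it. In bulk RNA, fewer cells of a kind and less RNA per cell cannot be told apart.

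**Figure D1:**
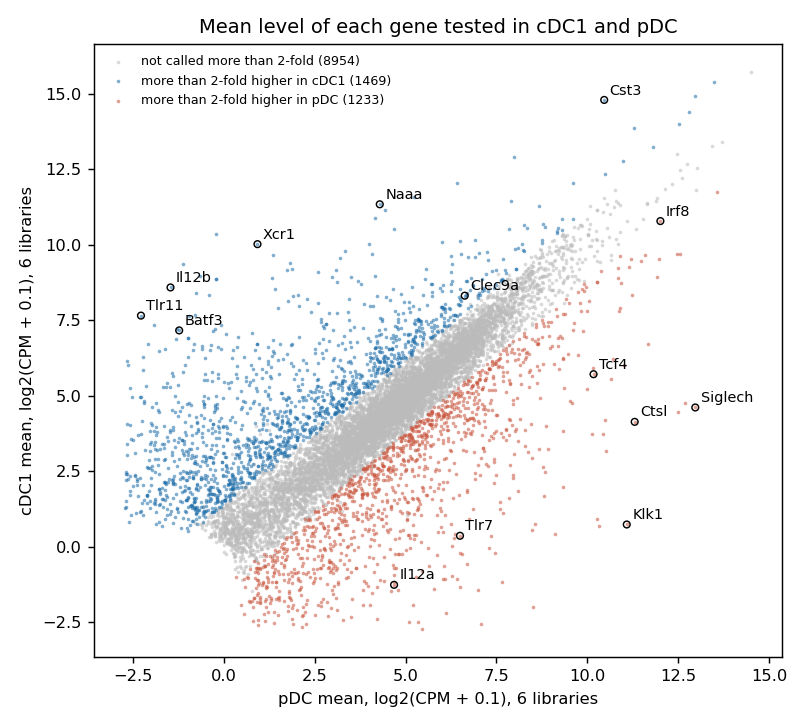
Mean level of each of the 11656 genes tested, as log2(CPM + 0.1), in 6 pDC libraries (horizontal axis) and 6 cDC1 libraries (vertical axis). Blue and red points are the 1469 and 1233 genes called more than 2-fold higher in cDC1 and in pDC, and circled points are genes described in the text.

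The 4 marker genes separated the subsets. Xcr1, the receptor for the chemokine XCL1 and an antigen of the cDC1 gate, lay between 906 and 1133 CPM in cDC1 (median 1071) and between 1.24 and 2.62 CPM in pDC (median 1.69). Batf3, which the gates did not use, lay between 114 and 158.04 CPM in cDC1 (median 147) and between 0.195 and 0.567 CPM in pDC (median 0.281), a log2 difference of 8.74 ± 0.18 (SE, edgeR adjusted p = 1.2e-14). Both genes were high in all 6 cDC1 libraries and low in all 6 pDC libraries. Siglech, a sialic acid binding lectin of pDC, lay between 7204 and 9101 CPM in pDC (median 7923) and between 7.32 and 41.3 CPM in cDC1 (median 23.9), a log2 difference of -8.37 ± 0.38. Tcf4 lay between 1120 and 1201 CPM in pDC (median 1152) and between 33.7 and 66.6 CPM in cDC1 (median 54.5), a log2 difference of -4.46 ± 0.14 (edgeR adjusted p = 3.8e-13). No values of these 4 genes overlapped between the subsets, and Tcf4 stayed measurable in every cDC1 library.

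A list of cDC1 identity held 28 symbols, of which 25 were in both tables and tested. Of these, 24 were called higher in cDC1 and 0 higher in pDC, 23 of them by more than 2-fold, with a median difference of 5.62. The members were chosen with earlier results of these data known, so these counts describe the list and are no test of identity. Among the largest differences were those of Tlr11, a sensor of the protozoan protein profilin, at 10.90 ± 0.22, and Gcsam, a signalling adaptor first described in germinal centre B cells, at 8.96 ± 0.51. Naaa, a lysosomal amidase, had a median of 2548 CPM in cDC1 and 19.3 CPM in pDC, and Ppt1, a lysosomal thioesterase, had 7936 and 254 CPM. Some familiar cDC1 markers separated the subsets far less. Clec9a, the receptor for actin exposed on dead cells, lay between 280 and 394 CPM in cDC1 (median 309) and between 85.9 and 112 CPM in pDC (median 98.5), a difference of 1.68 ± 0.10. Cd8a, the CD8 alpha chain carried by splenic cDC1, lay between 868 and 2112 CPM in cDC1 (median 1415) and between 172.3 and 308 CPM in pDC (median 219), a difference of 2.66 ± 0.27. Tlr3, the endosomal receptor for double-stranded RNA, was at 114 to 140 CPM in cDC1 (median 123) and 107 to 138 CPM in pDC (median 119), and its difference of 0.06 ± 0.08 was not called (edgeR adjusted p = 0.50). Clec9a and Cd8a were thus higher in every cDC1 library while also measurable in every pDC library, and the Tlr3 ranges overlapped almost fully.

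A list of pDC identity held 40 symbols, of which 38 were in both tables and 37 were tested, Gzmb, which encodes granzyme B, being below the filter. The 37 were called higher in pDC, 35 of them by more than 2-fold, with a median difference of -5.16. These members too were chosen with earlier results known, and their counts are a description only. Klk1, a tissue kallikrein, lay between 1289 and 3098 CPM in pDC (median 2094) and between 0.253 and 3.74 CPM in cDC1 (median 1.02), a difference of -10.46 ± 0.63. Cox6a2, a muscle-type subunit of cytochrome c oxidase, had medians of 1220 CPM in pDC and 1.21 CPM in cDC1 (-9.75 ± 0.29). Ly6d, a surface protein also used to stage B cell progenitors, had medians of 5694 and 17.8 CPM (-8.04 ± 0.30). Ccr9, a gut-homing chemokine receptor, differed by -4.83 ± 0.19. Cdh1, the adhesion protein E-cadherin, and Atp1b1, a sodium pump subunit, differed by -7.76 ± 0.24 and -7.39 ± 0.18. Pld4, an endosomal exonuclease, differed by -1.91 ± 0.07, with a median of 281 CPM in cDC1. The 2 members called without passing the 2-fold rule were Tspan31 (-0.99 ± 0.09) and Cacna1e (-1.26 ± 0.15).

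**Figure D2:**
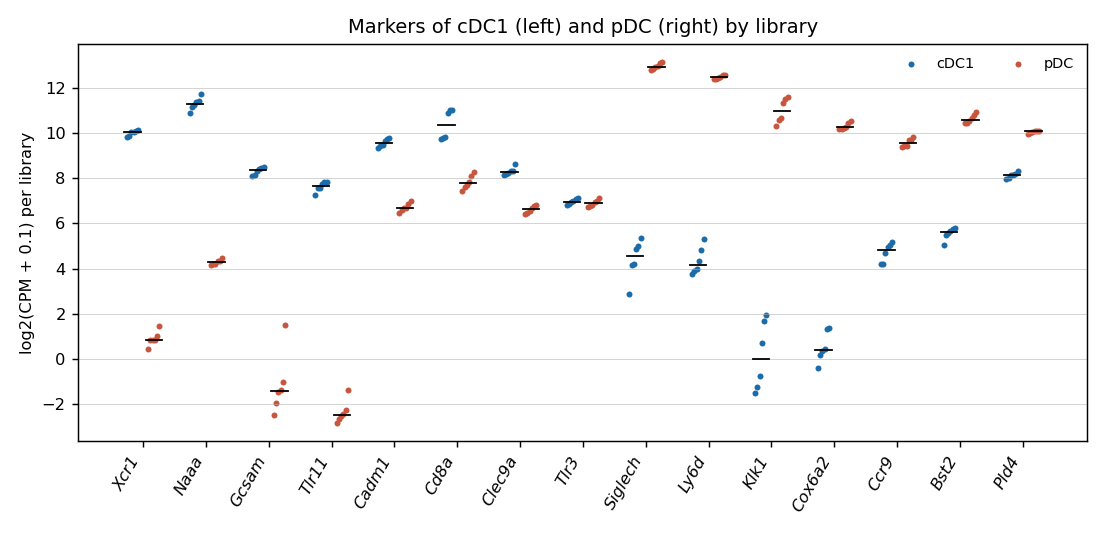
Level of 15 marker genes in each library as log2(CPM + 0.1), with blue points for the 6 cDC1 libraries, red points for the 6 pDC libraries and bars for the group medians. The groups are far apart for Xcr1 and Siglech, closer for Cd8a, Clec9a and Pld4, and overlap for Tlr3.

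Differences were ranked among the genes tested whose higher group averaged at least 50 CPM. Genes that either table left out, such as Dntt and Cd207, have no difference and were not ranked. Toward cDC1, Tlr11 had the largest difference, followed by Gpr141b, an orphan G protein-coupled receptor (10.76 ± 0.27). Apol7c, an apolipoprotein L family member (10.72 ± 0.29), and Il12b (10.51 ± 0.34) came next. Apol7c lay between 966 and 1996 CPM in cDC1 and between 0.480 and 0.952 CPM in pDC. Adam8, a membrane metalloprotease, Dkk3, a secreted glycoprotein of the Dickkopf family, Nudt17, a nudix hydrolase, Fam149a and Zmynd15 were also among the 15 largest, between 9.37 and 10.18. Toward pDC the largest difference was that of Klk1b27, a kallikrein of the same cluster as Klk1 (-11.27 ± 0.30), with 245 to 463 CPM in pDC and 0.0356 to 0.404 CPM in cDC1. It was followed by Gm12253 (-10.80 ± 0.57), Klk1 and Cox6a2, and then by Pltp, a phospholipid transfer protein (-9.41 ± 0.16), Atp2a1, the fast-muscle calcium pump (-9.30 ± 0.27), and Grm8, a metabotropic glutamate receptor (-9.19 ± 0.31). Sh3bgr, Smim5, Ccdc162, Sla2, Ly6c2 and Clec10a completed the 15 with Siglech and Ly6d, between -8.93 and -7.88. Klk1, Klk1b27, Apol7c and Ly6c2 share 40.5%, 41.7%, 38.1% and 23.7% of their 31-base words with other genes of the annotation. Their counts may thus include reads of relatives.

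Promoter windows of 7 genes that passed the 2-fold rule are shown because they include genes of both directions and examples with and without matches to 4 short motifs. The windows run from 250 bases before to 50 bases after the gene start in RefSeq on GRCm38.p6 and are written 5′ to 3′ on the gene's strand. Capitals mark matches on either strand to CACCTG (an E-box, the kind of element E proteins bind), GAGGAAGT (an ETS element of the type PU.1 binds), GAAANNGAA (an interferon response type) and TGANTCA (an AP-1 type). The first 4 genes were higher in cDC1 and the last 3 higher in pDC, and they were chosen with their matches known. Tlr11 is at chr14:50357664-50357963 on the plus strand, Apol7c at chr15:77533266-77533565 on the minus strand, Cxcl9 at chr5:92328030-92328329 on the minus strand and Batf3 at chr1:191098164-191098463 on the plus strand. Siglech is at chr7:55767934-55768233 on the plus strand, Ccr9 at chr9:123766961-123767260 on the plus strand and Klk1 at chr7:44225110-44225409 on the plus strand.
Tlr11: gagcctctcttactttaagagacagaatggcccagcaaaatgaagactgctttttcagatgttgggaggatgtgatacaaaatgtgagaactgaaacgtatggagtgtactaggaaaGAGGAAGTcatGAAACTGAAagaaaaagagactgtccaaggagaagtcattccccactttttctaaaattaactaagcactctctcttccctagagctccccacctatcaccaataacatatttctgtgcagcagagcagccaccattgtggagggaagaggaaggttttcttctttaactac
Apol7c: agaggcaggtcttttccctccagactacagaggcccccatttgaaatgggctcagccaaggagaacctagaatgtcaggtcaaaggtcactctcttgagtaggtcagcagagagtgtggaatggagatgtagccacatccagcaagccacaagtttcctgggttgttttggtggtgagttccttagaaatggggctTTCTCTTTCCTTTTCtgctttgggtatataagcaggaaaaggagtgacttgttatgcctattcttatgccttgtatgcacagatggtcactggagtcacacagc
Cxcl9: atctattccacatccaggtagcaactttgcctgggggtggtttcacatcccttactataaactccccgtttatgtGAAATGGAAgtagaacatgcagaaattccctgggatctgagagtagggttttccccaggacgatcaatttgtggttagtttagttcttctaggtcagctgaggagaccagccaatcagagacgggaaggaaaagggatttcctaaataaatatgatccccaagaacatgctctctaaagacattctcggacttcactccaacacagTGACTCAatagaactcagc
Batf3: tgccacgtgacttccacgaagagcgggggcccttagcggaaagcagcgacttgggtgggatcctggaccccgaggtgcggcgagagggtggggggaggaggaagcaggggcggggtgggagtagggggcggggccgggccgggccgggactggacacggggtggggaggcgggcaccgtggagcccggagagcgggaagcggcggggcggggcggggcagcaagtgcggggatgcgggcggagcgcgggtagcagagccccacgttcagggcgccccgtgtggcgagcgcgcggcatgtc
Siglech: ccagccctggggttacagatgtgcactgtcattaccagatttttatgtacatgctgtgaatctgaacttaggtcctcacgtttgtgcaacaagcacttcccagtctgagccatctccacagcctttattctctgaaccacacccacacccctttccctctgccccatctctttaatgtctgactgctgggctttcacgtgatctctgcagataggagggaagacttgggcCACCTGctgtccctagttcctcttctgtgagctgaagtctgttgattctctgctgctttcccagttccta
Ccr9: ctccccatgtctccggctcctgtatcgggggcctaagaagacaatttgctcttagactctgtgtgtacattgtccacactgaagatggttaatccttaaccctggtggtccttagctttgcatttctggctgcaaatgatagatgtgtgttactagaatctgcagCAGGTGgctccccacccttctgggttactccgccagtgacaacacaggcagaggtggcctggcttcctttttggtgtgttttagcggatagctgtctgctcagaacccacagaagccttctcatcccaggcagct
Klk1: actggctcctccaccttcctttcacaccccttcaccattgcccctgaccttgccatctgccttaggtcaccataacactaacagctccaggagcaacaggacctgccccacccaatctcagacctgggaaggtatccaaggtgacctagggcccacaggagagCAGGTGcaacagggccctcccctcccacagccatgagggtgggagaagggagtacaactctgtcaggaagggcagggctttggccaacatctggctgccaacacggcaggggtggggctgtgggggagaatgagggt

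In these windows Tlr11 held 1 GAGGAAGT and 1 GAAANNGAA match, Apol7c held 2 GAAANNGAA matches, and Cxcl9 held 1 GAAANNGAA and 1 TGANTCA match. Siglech, Ccr9 and Klk1 each held 1 CACCTG match, and Batf3 held 0 matches to the 4 motifs. Over all 9319 genes tested that had a window, CACCTG was present in 16.8%, against 17.3% of the 1148 windows of genes more than 2-fold higher in cDC1 and 22.9% of the 961 windows of genes more than 2-fold higher in pDC. GAGGAAGT was present in 3.47% of all windows, 5.31% of the cDC1 set and 3.95% of the pDC set. GAAANNGAA was present in 7.47%, 10.4% and 8.01%, and TGANTCA in 4.84%, 7.14% and 5.41%, in the same order. Of 5 further motifs, CANNTG, which contains the CACCTG matches, was in 63.4%, 68.1% and 67.8% of windows, and CAGCTG in 14.2%, 17.4% and 16.3%. AGGAAG, which overlaps GAGGAAGT, was in 33.5%, 38.1% and 34.3%, GGGANNTCC (an NF-kB type) in 5.81%, 7.06% and 4.68%, and TATAAA in 7.34%, 8.62% and 8.64%. The shares of CACCTG and GGGANNTCC differed in opposite directions between the sets, and none of the 9 motifs was tested. A match is a string of letters and not evidence of binding.

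Transcription factors of the conventional lineage were mostly higher in cDC1: of 23 tested on that list, 16 were called higher in cDC1 and 6 higher in pDC, 11 and 3 by more than 2-fold, with a median of 1.15. Id2 lay between 1657 and 2628 CPM in cDC1 (median 2423) and between 19.2 and 24.6 CPM in pDC (median 21.4), a difference of 6.71 ± 0.15 (edgeR adjusted p = 1.7e-14). Zbtb46, a factor specific to conventional dendritic cells among myeloid cells, had medians of 103 and 2.84 CPM (5.21 ± 0.18), and Zfp366, also called DC-SCRIPT, had 89.1 and 0.254 CPM (8.69 ± 0.22). Both were separated without overlap. Spi1, which encodes PU.1, differed by 2.85 ± 0.07, Relb, an NF-kB subunit, by 2.50 ± 0.14, and Egr2 by 4.1 ± 0.27. Nfil3, required for cDC1 development, was called at 1.18 ± 0.24 with overlapping ranges, and Irf5 passed the 2-fold rule at 1.15 ± 0.08.

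Irf8, the factor on which cDC1 development depends, was higher in pDC. It lay between 1426 and 1923 CPM in cDC1 (median 1794) and between 3864 and 4450 CPM in pDC (median 4134), a difference of -1.23 ± 0.09 (edgeR adjusted p = 4.6e-09). The ranges did not overlap, and the gene was abundant in both subsets. Irf4, a relative associated with cDC2, had medians of 6.58 CPM in cDC1 and 35.4 CPM in pDC (-2.24 ± 0.29), and Cebpb had 11 and 33.6 CPM (-1.60 ± 0.21). Klf4 was not called (-0.46 ± 0.24), but it was called higher in pDC without the cDC1 library coded a157 (-0.75, edgeR adjusted p = 0.0014) and without the pDC library coded a162 (-0.58, edgeR adjusted p = 0.046).

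Of 28 tested factors associated with pDC, 21 were called higher in pDC and 6 higher in cDC1, 18 and 2 by more than 2-fold, with a median of -1.79. Runx2, needed for pDC to leave the bone marrow, lay between 261 and 360 CPM in pDC (median 313) and between 6.79 and 14.7 CPM in cDC1 (median 9.83), a difference of -4.95 ± 0.17. Spib, an ETS factor, lay between 407 and 504 CPM in pDC (median 478) and between 11.7 and 23.8 CPM in cDC1 (median 14.2), a difference of -4.90 ± 0.18. Both were detected in every cDC1 library and were higher in all 6 pDC libraries. Tsc22d1 differed by -4.71 ± 0.12, Ets1 by -4.00 ± 0.18, Zeb2, a repressor of Id2 in pDC, by -3.72 ± 0.20, and Bcl11a by -1.83 ± 0.09. Irf7, the factor that amplifies interferon transcription, had medians of 319 CPM in pDC and 82.1 CPM in cDC1 (-1.89 ± 0.10).

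The E proteins did not move together. Next to Tcf4, Tcf12 was higher in pDC (-2.24 ± 0.11, medians 96.9 and 20 CPM). Tcf3 lay between 26.9 and 32.7 CPM in cDC1 and between 29.2 and 36.2 CPM in pDC, overlapped, and was not called (-0.15 ± 0.08, edgeR adjusted p = 0.096), whereas with library totals as the sole scaling it was called higher in pDC (-0.37, edgeR adjusted p = 0.0071), as it also was without the cDC1 library coded a172 (edgeR adjusted p = 0.046). Zfp710 (1.51 ± 0.09) and Mybl2 (1.64 ± 0.29) were the pDC-associated factors more than 2-fold higher in cDC1. Mybl2 shares 21% of its 31-base words with other genes.

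**Figure D3:**
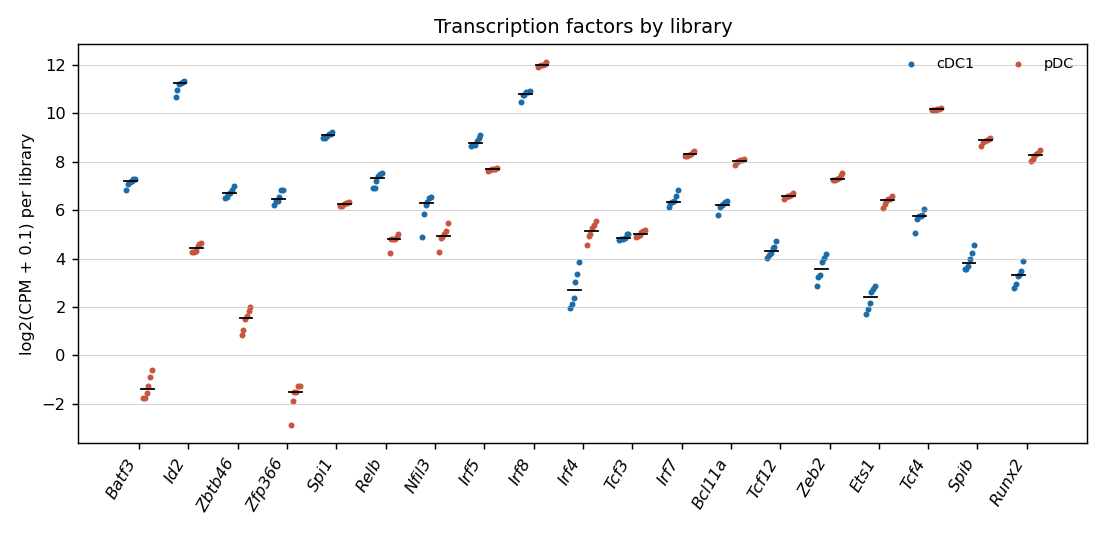
Level of 19 transcription factors in each library as log2(CPM + 0.1), with blue points for 6 cDC1 libraries, red points for 6 pDC libraries and bars for medians. From left to right the blue points start above the red ones (Batf3, Id2, Zbtb46) and end below them (Tcf4, Spib, Runx2), while Tcf3 lies level and Irf8 is higher in pDC.

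Toll-like receptors divided between the subsets. Of 25 tested receptors and adaptors, 14 were called higher in cDC1 and 6 higher in pDC, 7 and 4 by more than 2-fold. Tlr11 lay between 153 and 230 CPM in cDC1 (median 203) and between 0.0391 and 0.280 CPM in pDC (median 0.0769). Tlr7, the endosomal sensor of single-stranded RNA, lay between 79.6 and 104 CPM in pDC (median 90.3) and between 0.0760 and 2.38 CPM in cDC1 (median 1.17), a difference of -6.34 ± 0.40 (edgeR adjusted p = 1.1e-09). The ranges of these 2 receptors were far apart between the subsets. Tlr13, a sensor of bacterial ribosomal RNA, differed by 7.33 ± 0.16, Tlr1, which pairs with Tlr2 for lipopeptides, by 4.86 ± 0.32, Tlr2 by 1.96 ± 0.10, and Tlr4, the lipopolysaccharide receptor, by 1.77 ± 0.24. Tlr1 and Tlr6 share 20% and 16.6% of their 31-base words with other genes, chiefly each other. Tlr12, which acts with Tlr11, was called higher in cDC1 with overlapping ranges (1.06 ± 0.18), and Tlr5 was not called (-0.28 ± 0.39).

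Tlr9, the sensor of CpG DNA for which pDC are known, was low in both: 2.32 to 4.38 CPM in pDC (median 3.18) and 0.711 to 1.4 CPM in cDC1 (median 1.17), a difference of -1.48 ± 0.23 (edgeR adjusted p = 3.4e-05). All 6 pDC values exceeded all 6 cDC1 values. Slc15a4, a lysosomal transporter needed for endosomal receptor signalling in pDC, had medians of 154 CPM in pDC and 33.5 CPM in cDC1 (-2.20 ± 0.12). Unc93b1, the chaperone of the endosomal receptors, was called without passing the 2-fold rule (-0.81 ± 0.10). Myd88, the shared adaptor, was not called (0.11 ± 0.07).

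**Figure D4:**
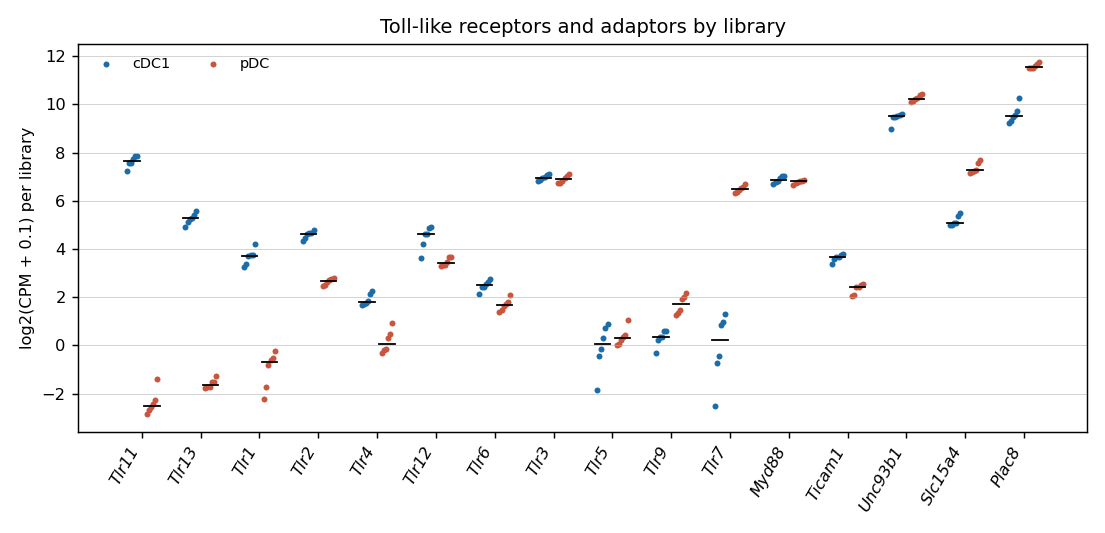
Level of 16 Toll-like receptors and associated proteins in each library as log2(CPM + 0.1), with blue points for 6 cDC1 libraries, red points for 6 pDC libraries and bars for medians. Tlr11, Tlr13 and Tlr1 are high in cDC1 alone, Tlr7 in pDC alone, and Tlr3 and Myd88 overlap.

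Cytosolic sensors of nucleic acid also divided, with 10 of 18 tested called higher in cDC1 and 7 higher in pDC, 6 and 3 by more than 2-fold. Cgas, the cytosolic DNA sensor, had medians of 9.96 CPM in cDC1 and 1.37 CPM in pDC (2.95 ± 0.18). Sting1, its downstream adaptor, went the other way, with 97.9 and 270 CPM (-1.54 ± 0.12). Neither gene overlapped between subsets. The inflammasome sensor Nlrp1b differed by 3.76 ± 0.43, and the kinase Ikbke by -2.08 ± 0.22. Trex1 (-1.27 ± 0.09), a DNA exonuclease, shares 97.6% of its 31-base words with the overlapping gene Atrip, and its counts are uncertain.

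Interferon signalling genes leaned toward pDC. Of 13 tested, 4 were called higher in cDC1 and 8 higher in pDC, and all 5 that passed the 2-fold rule were higher in pDC. Both chains of the type I interferon receptor were among them: Ifnar1 had medians of 81.9 CPM in cDC1 and 286 CPM in pDC (-1.75 ± 0.13), and Ifnar2 had 99.7 and 591 CPM (-2.56 ± 0.07). Stat2, a subunit of the ISGF3 complex, differed by -1.55 ± 0.10, and the inhibitors Socs3 and Ptpn6 by -1.67 ± 0.24 and -1.73 ± 0.08. The interferon gamma receptor chain Ifngr1 was the reverse, with 860 to 1252 CPM in cDC1 (median 1145) and 55.2 to 68.9 CPM in pDC (median 65.4), a difference of 4.09 ± 0.11 (edgeR adjusted p = 6.8e-14).

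Interferon-stimulated genes did not form 1 block. Of 41 tested, 10 were called higher in cDC1 and 20 higher in pDC, 6 and 9 by more than 2-fold, with a median of -0.35. The 20 and the 9 include Bst2, an antigen of the pDC gate, whose difference toward pDC was the largest of the list (-5.09). Ifi27l2a had medians of 25.1 CPM in cDC1 and 401 CPM in pDC (-3.77 ± 0.32), Ifi47, an immunity-related GTPase, differed by -3.14 ± 0.16, Slfn8, which shares 26.8% of its 31-base words with other genes, by -2.90 ± 0.20 and Oasl2 by -2.16 ± 0.31. Ifitm3, which blocks viral fusion, had 188 and 24.2 CPM (3.09 ± 0.29), and Gbp2, a guanylate-binding GTPase, 21.9 and 1.14 CPM (3.91 ± 0.30). Ifitm2 differed by 5.10 ± 0.29 but shares 55.5% of its 31-base words with other genes. Isg15 was not called (0.06 ± 0.15), and Mx1, the gene whose promoter drives the Cre, was called at 1.11 ± 0.16 without passing the 2-fold rule. All groups had received polyI:C, so these levels have no untreated reference here. The summed level of the list was lowest in the cDC1 library coded a172, and without it the counts were 11 and 19 called, 5 and 9 by more than 2-fold.

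MHC class II genes were higher in cDC1, in part as the gate requires. Of 18 tested, 14 were called higher in cDC1 and 2 higher in pDC, 9 and 0 by more than 2-fold, with a median of 1.29. H2-Ab1, a class II chain and so a gate gene, had medians of 31953 CPM in cDC1 and 7676 CPM in pDC. Outside the gate, Ciita, the master activator of class II transcription, lay between 343 and 448 CPM in cDC1 (median 417) and between 61.9 and 99.5 CPM in pDC (median 73.7), a difference of 2.44 ± 0.12. Cd83, which stabilises surface class II, had medians of 3137 and 35.7 CPM (6.34 ± 0.28). Both were separated without overlap. H2-Ob, part of the peptide-loading modulator H2-O, differed by 3.87 ± 0.14, Cd74, the invariant chain, was called at 1.22 ± 0.13 without passing the 2-fold rule, and Rfx5, which recruits Ciita, was not called (0.13 ± 0.14).

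Class I presentation genes were divided. Of 23 tested genes, 11 were called higher in cDC1 and 9 higher in pDC, 5 and 1 by more than 2-fold, and the median of 0.14 became -0.07 with library totals as the sole scaling. The peptide transporter Tap1 had medians of 339 CPM in cDC1 and 104 CPM in pDC (1.70 ± 0.08), the immunoproteasome subunit Psmb9 had 1160 and 439 CPM (1.4 ± 0.09), and Nlrc5, an activator of class I genes, 46.3 and 15.9 CPM (1.64 ± 0.23). All 3 were separated without overlap. The chains themselves were not higher in cDC1: B2m was not called (-0.17 ± 0.17), H2-D1, with 26.7% of its 31-base words shared, was not called (-0.08 ± 0.11), and both were called lower in cDC1 with library totals as the sole scaling (-0.40 and -0.30). H2-Q7, a non-classical chain, was higher in pDC (-1.52 ± 0.18) and shares 39.1% of its 31-base words with relatives.

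Lysosomal proteases were mostly higher in pDC, whereas a protease inhibitor and 2 lysosomal lipid enzymes were higher in cDC1. Of 19 tested, 4 were called higher in cDC1 and 11 higher in pDC, 3 and 7 by more than 2-fold, with a median of -0.55. Ctsl, cathepsin L, lay between 2340 and 2755 CPM in pDC (median 2497) and between 12.4 and 24.2 CPM in cDC1 (median 16.0), a difference of -7.17 ± 0.21. Ctsb, cathepsin B, lay between 5009 and 6278 CPM in pDC (median 5632) and between 693 and 956 CPM in cDC1 (median 808), a difference of -2.78 ± 0.11. Both were higher in all 6 pDC libraries than in any cDC1 library. Ctsa, Ctsd and Ctsh followed at -2.43 ± 0.09, -2.46 ± 0.12 and -2.01 ± 0.08, with Ctsd sharing 33.2% of its 31-base words with a read-through gene model. Cst3, the cathepsin inhibitor cystatin C, lay between 18958 and 36082 CPM in cDC1 (median 27742) and between 1222 and 1827 CPM in pDC (median 1311), a difference of 4.32 ± 0.17. The 2 others that passed the 2-fold rule toward cDC1 were Naaa (7.05 ± 0.16) and Ppt1 (4.92 ± 0.11). Ctss, cathepsin S, differed by less (-0.48 ± 0.08), and Lgmn, legumain, was not called (edgeR adjusted p = 0.99).

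Of 23 tested genes of antigen capture and cross-presentation, 13 were called higher in cDC1 and 7 higher in pDC, 9 and 3 by more than 2-fold. Havcr2, which encodes TIM-3 and binds phosphatidylserine, had medians of 426 CPM in cDC1 and 12.5 CPM in pDC (4.96 ± 0.21). Wdfy4, which cDC1 need to cross-present cell-associated antigen, had 226 and 14 CPM (4.19 ± 0.18), and the scavenger receptor Cd36 had 497 and 16.7 CPM (4.82 ± 0.19). Rab43, linked to cross-presentation in cDC1, differed by 3.51 ± 0.12 but shares 74.8% of its 31-base words with another gene model. Toward pDC were 3 parts of the phagocyte NADPH oxidase: Cybb, its catalytic subunit, with medians of 53.8 CPM in cDC1 and 1150 CPM in pDC (-4.24 ± 0.25), Rac2 (-2.99 ± 0.08) and Ncf1 (-1.61 ± 0.11).

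Uptake receptors formed opposing groups. Of 20 tested C-type lectins and related receptors, 11 were called higher in cDC1, all by more than 2-fold, and 8 higher in pDC, 7 by more than 2-fold. The median of 1.71 became -1.16 when genes had to reach 5 CPM, a filter that left 14 members tested and 5 called higher in cDC1. Ly75, which encodes DEC-205, had medians of 98.2 CPM in cDC1 and 1.17 CPM in pDC (6.35 ± 0.20), and Clec7a, the beta-glucan receptor dectin-1, had 73.9 and 2.17 CPM (5.01 ± 0.25). Cd209d and Cd209a, relatives of DC-SIGN, were higher in pDC (-6.31 ± 0.48 and -4.77 ± 0.32), as were Clec10a, a galactose lectin (-7.88 ± 0.19), and Clec12a, an inhibitory receptor for uric acid crystals (-1.44 ± 0.08). Cd209d ranged from 756 to 2224 CPM within pDC and did not overlap with cDC1 at 6.40 to 35.1 CPM. Clec10a shares 14.9% of its 31-base words with other genes, chiefly Mgl2.

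Fc receptors divided as well. Of 10 tested, 5 were called higher in cDC1 and 3 in pDC, 3 in each direction by more than 2-fold, and with a filter at 5 CPM 2 of 7 were called higher in cDC1, 1 by more than 2-fold. Fcer1g, the shared signalling chain, differed by -2.02 ± 0.12, the inhibitory receptor Fcgr2b by -2.73 ± 0.21 and Fcrla, an intracellular relative, by -5.74 ± 0.31. Fcrl1 was higher in cDC1 (5.25 ± 0.33), as was the activating receptor Fcgr4 (5.08 ± 0.48), at 3.24 to 10.1 CPM against 0 to 0.369 CPM.

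All 14 tested chemokines passed the 2-fold rule, 12 toward cDC1 and 2 toward pDC, with a median of 4.08. With a filter at 5 CPM, 8 were tested and 6 called higher in cDC1. The count past the 2-fold rule toward pDC fell from 2 to 1 with DESeq2, with limma-voom and with any of the cDC1 library coded a172 and the pDC libraries coded a159 and a164 left out. Cxcl9, which attracts CXCR3+ T cells, lay between 405 and 596 CPM in cDC1 (median 490) and between 0.168 and 1.36 CPM in pDC (median 0.433), a difference of 9.88 ± 0.32. Ccl22 had medians of 137 and 0.130 CPM (9.87 ± 0.46), Cxcl16 had 465 and 0.791 CPM (9.21 ± 0.22), and Ccl5 had 303 and 2.47 CPM (7.17 ± 0.53). The cDC1 values lay far above every pDC value for these 4 genes. Ccl4 and Ccl3, inflammatory chemokines, were the 2 exceptions: Ccl4 lay between 1436 and 4137 CPM in pDC (median 1878) and between 207 and 385 CPM in cDC1 (median 353), a difference of -2.91 ± 0.28, and Ccl3 differed by -1.88 ± 0.40.

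The 2 subunits of interleukin 12 went in opposite directions. Il12b, the p40 subunit, lay between 256 and 570 CPM in cDC1 (median 328) and between 0.0840 and 0.430 CPM in pDC (median 0.264). Il12a, the p35 subunit, lay between 8.99 and 41.4 CPM in pDC (median 28.1) and between 0 and 0.735 CPM in cDC1 (median 0.243), a difference of -6.41 ± 0.55 (edgeR adjusted p = 5.0e-08). Neither pair of ranges overlapped. Of 19 tested cytokines, 13 were called higher in cDC1 and 3 in pDC, 11 and 2 by more than 2-fold, and with a filter at 5 CPM 7 toward cDC1 passed the 2-fold rule. Il15, which sustains NK and memory CD8 T cells, and its presenting receptor Il15ra were both higher in cDC1 (6.25 ± 0.32 and 3.75 ± 0.23), and so were Il6 (5.15 ± 0.43), Il18 (2.29 ± 0.15) and Tnf (2.30 ± 0.20). Il1b had medians of 1778 CPM in cDC1 and 16.3 CPM in pDC (6.75 ± 0.42). Il1b is also a product of neutrophils and monocytes. Neutrophil markers summed to 340 to 1429 CPM in cDC1 and 14 to 292 CPM in pDC, and their part in the Il1b level was not tested.

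Costimulatory and checkpoint genes differed in both directions. Of 30 tested, 16 were called higher in cDC1 and 10 in pDC, 12 and 9 by more than 2-fold. Cd86 lay between 425 and 543 CPM in cDC1 (median 493) and between 6.38 and 9.70 CPM in pDC (median 7.59), a difference of 5.98 ± 0.13. Cd80 and Cd40, its partners in T cell activation, differed by 5.49 ± 0.16 and 4.59 ± 0.20, Slamf8 by 6.45 ± 0.14, and Cd274, the inhibitory ligand PD-L1, by 2.49 ± 0.16. Icos was higher in cDC1 at low level (medians 28.5 and 0.654 CPM). Toward pDC, Slamf9 had medians of 9 CPM in cDC1 and 324 CPM in pDC (-5.26 ± 0.18), Cd28 had 1.28 and 36.7 CPM (-4.99 ± 0.51), and Sirpa, a receptor for CD47, Lag3 and Lgals9 differed by -2.98 ± 0.15, -2.92 ± 0.28 and -2.34 ± 0.10.

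Ccr7, the receptor that guides mature dendritic cells to lymph nodes, was higher in cDC1 and varied widely there, from 492 to 1588 CPM (median 936) against 8.72 to 19.1 CPM in pDC (median 16.9), a difference of 6.03 ± 0.30. Fscn1 and Marcksl1, actin regulators of mature dendritic cells, differed by 5.36 ± 0.26 and 6.30 ± 0.30. Trafficking receptors higher in pDC, beside Ccr9, included Ccr6 (-3.93 ± 0.38) and Cxcr3 (-1.4 ± 0.12). Cxcr4, a bone marrow retention receptor, was not called (-0.02 ± 0.18), with 22.2 to 45.5 CPM in cDC1 and 22.3 to 45.2 CPM in pDC. Of 40 tested genes of the actin cytoskeleton, 28 were called higher in cDC1 and 6 in pDC, 13 and 3 by more than 2-fold. With library totals as the sole scaling 24 and 10 were called, and without the cDC1 library coded a172, the lowest of its group for the list, the counts were 29 and 6, and 14 and 3. Capg, which caps actin filaments, was the largest exception (-5.61 ± 0.20).

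Receptors for growth factors divided evenly, with 13 of 29 tested called in each direction, 9 toward cDC1 and 7 toward pDC by more than 2-fold. All genes tested also divided evenly, with 35% called higher in cDC1 and 35.3% higher in pDC. Flt3, the receptor both subsets need, had medians of 497 CPM in cDC1 and 320 CPM in pDC and was called without passing the 2-fold rule (0.65 ± 0.07). Kit, Csf1r and Csf2ra were higher in cDC1 (3.19 ± 0.20, 3.43 ± 0.15 and 2.40 ± 0.10). Il7r, a lymphoid growth factor receptor, had 237 to 302 CPM in pDC and 9.94 to 22.3 CPM in cDC1 (-4.17 ± 0.20), and Tnfrsf13b, the TACI receptor of B cells, differed by -4.38 ± 0.19. Tgfbr1 was also higher in pDC (-2.06 ± 0.13).

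Of 30 tested integrins and adhesion molecules, 16 were called higher in cDC1 and 13 in pDC, 11 and 5 by more than 2-fold, and with library totals as the sole scaling 9 and 8 passed the 2-fold rule. Cd81, a tetraspanin, lay between 625.4 and 723 CPM in cDC1 (median 650) and between 1.32 and 5.07 CPM in pDC (median 3.45), a difference of 7.57 ± 0.24. Cd9 and Cd63, further tetraspanins, differed by 6.45 ± 0.28 and 5.92 ± 0.52, and they share 10.8% and 15.9% of their 31-base words with other genes. Itgae, which encodes CD103, differed by 6.18 ± 0.50, ranging from 8.75 to 52.8 CPM within cDC1. Itgb3 was higher in pDC (-3.43 ± 0.22).

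Most cell cycle genes were higher in cDC1: of 42 genes tested, 39 were called higher in cDC1 and 1 higher in pDC, 23 and 0 by more than 2-fold, with a median of 1.64. Mki67, the proliferation antigen, lay between 17.1 and 28.5 CPM in cDC1 (median 20.4) and between 1.56 and 5.04 CPM in pDC (median 3.44), a difference of 2.64 ± 0.22. Ccnb2, a mitotic cyclin, had medians of 69.4 and 6.34 CPM (3.50 ± 0.24). Both were separated without overlap. Cdc20 and Bub1, of the spindle checkpoint, differed by 2.98 ± 0.23 and 2.73 ± 0.25, Cdk1 by 2.14 ± 0.23, and the replication helicase subunit Mcm3 by 1.85 ± 0.10. Cdc20 shares 25.5% of its 31-base words with a processed copy. Foxm1 was the gene called higher in pDC (-0.66 ± 0.20), and Rrm1 (0.16 ± 0.10) and E2f1 (-0.20 ± 0.13) were not called. Rrm1 was called higher in cDC1 without the cDC1 library coded a157 (edgeR adjusted p = 0.044) or a166 (edgeR adjusted p = 0.0497).

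BCL2 family genes were called higher in cDC1 for 11 of 15 tested and higher in pDC for 0, 6 of the 11 by more than 2-fold. Mcl1, a survival factor, had medians of 449 and 215 CPM (1.08 ± 0.08), and Pmaip1, the pro-apoptotic NOXA, had 570 and 173.8 CPM (1.68 ± 0.14), so members of opposite function were both higher. The pro-apoptotic Bcl2l11 was not called (0.14 ± 0.16). Bcl2a1a, Bcl2a1b and Bcl2a1d differed by 9.19 ± 0.33, 7.37 ± 0.24 and 8.34 ± 0.23, but they share 79.6%, 88.8% and 89.1% of their 31-base words with relatives, so the division of reads among them is uncertain.

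Secretory pathway genes differed mostly by less than 2-fold. Of 57 tested, 15 were called higher in cDC1 and 23 in pDC, but 3 and 5 by more than 2-fold, with a median of -0.04. The share past the 2-fold rule was 14.04%, beside 23.2% of all genes tested. With library totals as the sole scaling 10 and 30 were called, with a median of -0.26. Xbp1, the factor that expands the endoplasmic reticulum, had medians of 213 CPM in cDC1 and 670 CPM in pDC (-1.69 ± 0.10), and Sec24d, a coat protein of export vesicles, had 26.8 and 158.2 CPM (-2.56 ± 0.08). Sdf2l1, a chaperone partner, went the other way with 451 and 75.8 CPM (2.52 ± 0.09), as did Pdia3, a disulphide isomerase of class I loading (1.24 ± 0.11). Mzb1 differed by -4.71 ± 0.30, with 55.1% of its 31-base words shared with another gene.

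Cytosolic ribosomal proteins differed by small amounts in 1 direction: of 74 tested, 65 were called higher in cDC1 and 1 in pDC, with a median of 0.59, and 0 passed the 2-fold rule toward cDC1. Rpl31 was the gene higher in pDC (-1.53 ± 0.12), and it shares 20.3% of its 31-base words with other genes, chiefly Rpl31-ps8. Without the cDC1 library coded a172, which had the lowest summed level of this list in its group, 68 were higher in cDC1, 2 of them by more than 2-fold. Of 64 nuclear-encoded genes of oxidative phosphorylation, 33 were called higher in cDC1 and 8 in pDC, and 1 in each direction passed the 2-fold rule: Cycs, cytochrome c (1.31 ± 0.11, with 29.2% of its 31-base words shared), and Cox6a2. The shares called and past the 2-fold rule were 64.1% and 3.1%, beside 70.3% and 23.2% of all genes tested. With library totals as the sole scaling, 15 were called higher in cDC1 and 19 in pDC.

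Of the classical histone deacetylases, 81.8% were called and 18.2% passed the 2-fold rule, beside 70.3% and 23.2% of all genes tested. Of 11 tested, 4 were called higher in cDC1 and 5 in pDC, 0 and 2 by more than 2-fold. Hdac5, a class IIa enzyme, lay between 36 and 39.5 CPM in pDC (median 37.9) and between 7.49 and 13.4 CPM in cDC1 (median 8.2), a difference of -2.04 ± 0.13. Hdac10, a polyamine deacetylase, lay between 37.9 and 43.4 CPM in pDC (median 40.9) and between 12.9 and 18.5 CPM in cDC1 (median 16.3), a difference of -1.35 ± 0.09. Both were higher in every pDC library. Hdac3 (-0.63 ± 0.09), Hdac7 (-0.70 ± 0.18), Hdac6 (0.74 ± 0.15) and Hdac11 (0.79 ± 0.24) were called without passing the 2-fold rule. The calls of Hdac2 (0.33 ± 0.12) and Hdac4 (0.37 ± 0.15) were lost with library totals as the sole scaling (edgeR adjusted p = 0.48 and 0.42) and with single libraries left out, among them the cDC1 library coded a172 and the pDC library coded a159, either of which left 2 called toward cDC1. Hdac9 (-0.36 ± 0.14) lost its call when cDC2 entered the fit (edgeR adjusted p = 0.097) and without any of the cDC1 libraries coded a157, a166 and a169 or the pDC libraries coded a159, a162 and a164 (edgeR adjusted p = 0.058 to 0.072).

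Hdac1, the gene the series deletes, spread widely in both subsets, from 5.73 to 80.1 CPM in cDC1 (median 34.6) and from 8.48 to 118 CPM in pDC (median 59.5), and was not called (-0.62 ± 0.80, edgeR adjusted p = 0.50). Each group pools both genotypes and the columns carry no genotype, so there was no label to check against Hdac1. Of its 31-base words, 40.0% are shared, chiefly with a processed copy. Of 31 tested subunits of HDAC1/2 corepressor complexes, 7 were called higher in cDC1 and 9 in pDC, 2 and 1 by more than 2-fold. With library totals as the sole scaling 4 and 15 were called. The shares called and past the 2-fold rule in the main fit were 51.6% and 9.7%, beside 70.3% and 23.2% of all genes tested. Past the 2-fold rule were Chd3, a NuRD remodeller (1.47 ± 0.11), Rbbp7, a histone-binding subunit (1.34 ± 0.08), and Rcor3, a CoREST protein (-1.60 ± 0.11).

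Genes shared with the lymphoid lineages differed in both directions, with the 2-fold calls mainly toward pDC. Of 22 tested, 6 were called higher in cDC1 and 11 in pDC, 1 and 10 by more than 2-fold, and with a filter at 5 CPM 2 toward cDC1 were called. Blnk, a B cell receptor adaptor, lay between 419 and 461 CPM in pDC (median 433) and between 4.44 and 8.76 CPM in cDC1 (median 5.84), a difference of -6.16 ± 0.17. Cd7 differed by -3.41 ± 0.30, Notch1 and Notch3 by -3.65 ± 0.29 and -3.96 ± 0.24, and Ptcra, the pre-T cell receptor chain, by -2.72 ± 0.42 at 1.28 to 3.11 CPM in pDC. Ighm, the immunoglobulin heavy chain of B cells, had medians of 425 CPM in cDC1 and 1970 CPM in pDC (-2.20 ± 0.08). Of 19 tested B cell markers, 9 were called higher in cDC1 and 6 in pDC, with 3 toward cDC1 under a filter at 5 CPM. Their summed level was 703 to 1945 CPM in cDC1 and 3275 to 3676 CPM in pDC. Ms4a1, which encodes CD20, was higher in cDC1 (4.05 ± 0.34), and Pax5 did not pass the filter, with medians of 0.436 CPM in cDC1 and 0.266 CPM in pDC. Tcf7, the T cell factor TCF-1, was the lymphoid gene more than 2-fold higher in cDC1 (4.80 ± 0.36).

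The chains of CD8 went in opposite directions. While Cd8a was higher in cDC1, Cd8b1, the beta chain, lay between 291 and 860 CPM in pDC (median 724) and between 14.6 and 63.7 CPM in cDC1 (median 36.6), a difference of -4.12 ± 0.42. Cd4 was higher in pDC (-4.91 ± 0.25). The T cell list as a whole summed to 955 to 2234 CPM in cDC1 and 1093 to 1643 CPM in pDC, and Bcl11b, a defining T cell factor, was below the filter in both (medians 0.435 and 0.102 CPM).

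Markers of other cells were measured at varied levels. Of 11 tested neutrophil markers, 11 were called higher in cDC1, 10 by more than 2-fold with edgeR and 5 with DESeq2. S100a9, an abundant neutrophil protein, was at 103 to 452 CPM in cDC1 and 5.94 to 88.7 CPM in pDC, and the defining gene Mpo was below the filter (medians 2.43 and 0.223 CPM). Erythroid markers summed to 3108 to 9776 CPM in cDC1 and 2381 to 6430 CPM in pDC, led by globins such as Hbb-bs. Hbb-bs shares 54.4% of its 31-base words with Hbb-bt. Of 21 tested macrophage and monocyte markers, 16 were called higher in cDC1 and 3 in pDC. Their summed level was lower in cDC1, at 1760 to 3913 CPM, than in pDC, at 7256 to 8351 CPM. Ly6c2 had the largest difference toward pDC on this list (-7.93), with medians of 25.9 CPM in cDC1 and 6684 CPM in pDC. Lyz2, which shares 32.8% of its 31-base words with Lyz1, had medians of 1325 CPM in cDC1 and 23.3 CPM in pDC. Fcgr1, a gate antigen, was at medians of 0.396 and 0.0521 CPM. Of 8 tested NK cell markers, 6 were called higher in cDC1 and 1 in pDC, summing to 210 to 345 CPM and 495 to 789 CPM, and Klrk1 (2.19 ± 0.17) and Klrd1 (-3.03 ± 0.31) went apart. Of 8 tested plasma cell markers, 0 were called higher in cDC1 and 6 in pDC, 4 of them by more than 2-fold, with a median of -2.67. With limma-voom 4 were called higher in pDC. Their summed levels overlapped, at 82.2 to 990 CPM in cDC1 and 271 to 923 CPM in pDC. The part of other cells in any difference above was not tested.

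Immediate-early genes, which can respond to tissue handling, moved unevenly. Of 25 tested, 12 were called higher in cDC1 and 4 in pDC, 8 and 1 by more than 2-fold. The shares called and past the 2-fold rule were 64% and 36%, beside 70.3% and 23.2% of all genes tested. Egr3, Dusp2, Dusp1 and Atf3 were higher in cDC1 (5.43 ± 0.37, 4.86 ± 0.16, 3.06 ± 0.25 and 2.65 ± 0.26), Klf2 was higher in pDC (-1.47 ± 0.16), and Fosb (0.08 ± 0.29) and Ier2 (0.25 ± 0.13) were not called. Ier2 was called higher in cDC1 without the cDC1 library coded a160 (edgeR adjusted p = 0.044).

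**Figure D5:**
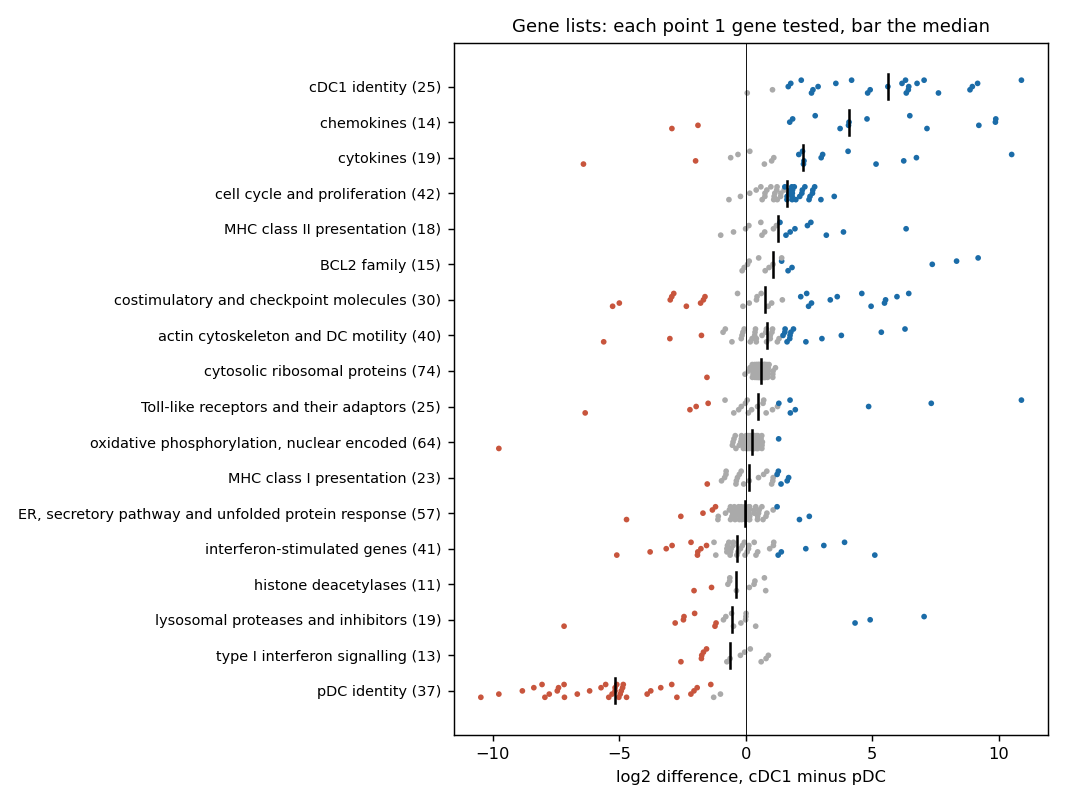
Log2 difference (cDC1 minus pDC) of every tested gene in 18 lists, 1 row per list with the number tested in brackets and a bar at the median. Blue and red points passed the 2-fold rule toward cDC1 and pDC, and grey points did not. Of 14 chemokines 12 lie to the right as blue points, most ribosomal proteins lie slightly right of 0 as grey points, and interferon-stimulated genes spread to both sides.

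The 6 cDC2 libraries, scaled with the other 12, place some of these genes. Batf3 was at 87.7 to 104 CPM in cDC2, beside 112 to 156.6 CPM in cDC1 and 0.189 to 0.559 CPM in pDC, and Zbtb46 was at 85.2 to 122 CPM in cDC2, beside 89.5 to 126 and 1.66 to 3.86 CPM. These were levels of the conventional pair rather than of cDC1 alone. Xcr1 was at 6.80 to 10.4 CPM and Irf8 at 30.1 to 66.2 CPM in cDC2, beside 1385 to 1906 CPM of Irf8 in cDC1 and 3784 to 4298 CPM in pDC. Clec9a was at 5.95 to 9.93 CPM in cDC2 and at 84.2 to 109 CPM in pDC, and Cd8a at 3.46 to 8.88 and 168.6 to 299 CPM. For Irf8, Clec9a and Cd8a, pDC thus lay above every cDC2 library. Cd209a was at 312 to 599 CPM, Sirpa at 311 to 532 CPM and Cd4 at 113 to 182 CPM in cDC2, and Tlr7 at 18.7 to 38.9 CPM, beside 78.4 to 101 CPM in pDC. Clec10a was lower in cDC2, at 6.61 to 36.3 CPM, than in pDC, at 313 to 407 CPM. The cDC2 values of these genes were named to place them and carry no test here.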

How the data were processed

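Counts per gene were deposited by the authors as a raw table for each subset. Kallisto, DESeq2 and the build GRCm38 appear in the submitters' processing notes with no role or version. Whether estimated counts were rounded was not given in the sources used here. The 18 columns of the separately normalized tables were not used. Counts of genes listed in both tables were joined, genes under 1 CPM in 6 libraries (5 where 1 library was left out) were removed, and the rest were scaled by TMM and fitted with edgeR 4.0.16 in R 4.3.3 by the quasi-likelihood test, with glmTreat for the 2-fold rule. Benjamini-Hochberg adjusted p under 0.05 was the threshold. The procedure was tested on simulated data in which few genes were changed, equally in both directions, with the same dispersion for every gene. That setting does not test the scaling where most genes differ, as they do here. The members and gene lists were chosen with earlier results of these data known. Genes were named by size (15 per direction, no overlap, higher mean at least 50 CPM), by list (up to 6 past the 2-fold rule per direction and 4 of smallest difference) and, for identity, factor, receptor and deacetylase lists, freely. Atrip was named outside this rule. Alternatives were DESeq2 1.42.0, limma 3.58.1 (voom), other scalings and filters, all subsets in 1 fit, and each library left out. Shares of 31-base words came from the transcripts of an annotation of GRCm38. PCR duplicates cannot be recognised in these counts.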

Additional observations from a re-analysis of the deposited data

Results flagged for a closer look

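Of 90 sets of 6 libraries examined (the summed level of a gene list in 1 subset, or a similar library value), 5 had a library whose gap to its nearest neighbour exceeded 0.625 of the range, and chance gives about 1 in 20. The cDC1 library coded a172 was the lowest of its group for actin cytoskeleton genes at 61135 CPM, beside 88714 to 102850 CPM in the others. It was also lowest for interferon-stimulated genes at 4659.3 CPM, beside 5544.5 to 5923.2 CPM, and for cytosolic ribosomal proteins at 30005 CPM, beside 41075 to 47391 CPM. The pDC library coded a162 was lowest for T cell markers at 1092.5 CPM, beside 1454.4 to 1642.9 CPM, and highest for erythroid markers at 6430.4 CPM, beside 2381.4 to 3260.8 CPM.

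Genes listed for 1 of the subsets only took no part in the comparison. Of these, 59 listed for cDC1 and not for pDC, and 32 listed for pDC and not for cDC1, reached 1 CPM in all 6 libraries of their table.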

How the results depend on the processing

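No paired analysis was possible because no column has a replicate number or a genotype. The labels do not say whether a cDC1 and a pDC sample came from the same mouse. The fit treats all libraries as independent, so the p-values take no account of any such pairing. Over 8 other settings, 2963 to 4431 genes were called higher in cDC1 and 3449 to 5219 higher in pDC, and more than 2-fold calls ranged from 1072 to 1655 and from 980 to 1509. With each library left out in turn, these counts were 3987 to 4135, 3988 to 4244, 1434 to 1495 and 1213 to 1268. Of 282 named genes, 0 reversed direction past a threshold, and 11 changed their call with library totals as the sole scaling, 5 with no filter, 3 with limma-voom, 1 with median-ratio scaling and 0 with DESeq2. Klf4 was called higher in pDC under library totals (edgeR adjusted p = 0.026) and limma-voom (adjusted p = 0.035), and E2f1 under library totals (edgeR adjusted p = 0.027). With a filter at 5 CPM, calls toward cDC1 fell for T cell markers from 9 to 2 and macrophage and monocyte markers from 16 to 10. The causes were not tested. Genes that did not reach 1 CPM in 6 libraries were not tested, and for those named the levels alone are given.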

Other observations

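Some of the genes listed for 1 subset and not for the other are abundant. Cd207, which encodes the lectin langerin, was listed for cDC1 and not for pDC, at 30.5 to 247 CPM (median 54.4), a wide range within 1 group. Dbn1, an actin-binding protein, had a median of 62.9 CPM and Itga8, an integrin chain, 38.6 CPM in the cDC1 libraries. Aldh1a2, which makes retinoic acid, had a median of 8.72 CPM there. Cd207, Dbn1, Itga8 and Aldh1a2 were all listed for cDC2 as well. Dntt, the terminal transferase of lymphoid progenitors, was listed for pDC and not for cDC1, at 140 to 194 CPM, and it was also listed for cDC2. Rai2 had a median of 30.4 CPM, Myh13, a muscle myosin, 23.4 CPM and Robo3, a guidance receptor, 22.1 CPM in the pDC libraries. Each table lists genes from a total of 10 counts upward, and a gene that a table leaves out was given no value.

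The second principal component, with 2.84% of the variance, separated libraries within both subsets. Its scores were 19.0, 13.4, 11.99, -10.6, -10.9 and -20.9 in cDC1 and 8.37, 13.4, 9.72, -11.9, -12.3 and -9.19 in pDC, so that 3 libraries of each subset lay on either side of 0. What the libraries on one side share was not tested, and no comparison was made between them. The spread within each group includes this difference.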
